A study of Rattus norvegicus with 8 samples.

Results

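Sox9, Cd24, Car3, Car12, Cdh2 and Nog are 6 genes used to recognise cells of the nucleus pulposus, the soft centre of the intervertebral disc. They were taken by gene symbol from a table of 4226 rat genes, in which each occurred once. The comparison was between rat nucleus pulposus cells with SOD1, the cytosolic superoxide dismutase, knocked down and then restored by transfection of either wild-type SOD1 (group SOD1-WT, 4 libraries) or its K123R mutant (group SOD1-K123R, 4 libraries). All 8 libraries carry the same lactate treatment, 10 mM for 7 days according to the series design. The labels do not state rat strain, age, number of donor animals, knockdown reagent or vector. The data columns of the SOD1-WT group are headed Ctrl and those of the SOD1-K123R group L, so it was not tested whether anything besides the SOD1 form separated the groups. Whether replicates came from separate cultures is not said in the labels, and p-values then measure only the spread among these 8 samples, part of which may be technical. Sod1 itself was not analysed here.

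The nucleus pulposus descends from the embryonic notochord, and its cells are recognised by a mixture of notochordal and cartilage genes. SOX9 is the transcription factor that switches on cartilage matrix genes and is needed to keep the notochord and the disc intact. Noggin, the product of Nog, is a secreted protein that binds bone morphogenetic proteins (BMPs) and keeps them from their receptors, and it is made by the notochord. CD24 is a small glycoprotein anchored to the outer cell surface, N-cadherin (Cdh2) joins nucleus pulposus cells into clusters, and the carbonic anhydrases CA3, in the cytosol, and CA12, on the cell membrane, interconvert carbon dioxide and bicarbonate in a tissue that lives on glycolysis. Of the matrix genes that define the disc core, Col2a1 was at or near 0 and Acan at most 2.16 TPM in these libraries. In SOD1-WT, 3 genes also used as markers of tendon, contractile and hypertrophic cells, Thbs2, Acta2 and Mmp13, averaged 777, 1429 and 1686 TPM. Each was the most abundant measured gene of its list. Scx, Myh11 and Runx2, from the same lists, averaged 29.1, 9.38 and 4.52 TPM in SOD1-WT. Ccn2, Cav1 and Slc2a1, listed as disc core markers, averaged 1029, 286 and 225 TPM in SOD1-WT.

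The markers did not move together. In SOD1-K123R cells Sox9, Cd24, Car12 and Nog were higher and Car3 and Cdh2 were lower, each by between 3.09-fold and 7.96-fold in mean TPM (a per-length share of all transcripts in a library, so that levels of genes can be compared). No marker overlapped between the groups in any of the 8 libraries. All 6 passed the limma test, called at a Benjamini-Hochberg adjusted p under 0.05 over the 2890 genes that averaged 1 TPM or more. In bulk samples, fewer cells of a type and less RNA per cell cannot be told apart. These calls have to be read against the table: 44.6% of tested genes were called higher in SOD1-K123R, 51.1% were called lower, and 91.4% did not overlap between the groups. A count of 4 higher and 2 lower with no overlap is therefore no result about the markers as a set, and what follows concerns the size and level of each.

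**Figure D1:**
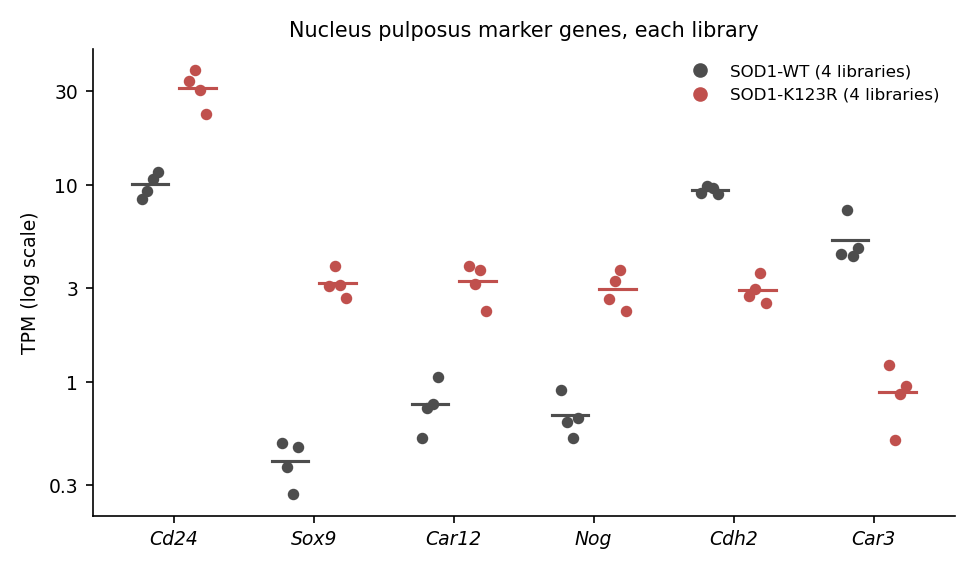
TPM on a log scale of the 6 marker genes in each library, with 1 point per library and a bar at the mean of each group of 4. Cd24, Sox9, Car12 and Nog lie higher and Cdh2 and Car3 lower in all 4 SOD1-K123R libraries than in any SOD1-WT library.

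Sox9 was under 0.5 TPM in every SOD1-WT library and higher, though still low, in SOD1-K123R cells. It read 0.49, 0.37, 0.27 and 0.47 TPM in SOD1-WT replicates 1 to 4 and 3.07, 3.87, 3.13 and 2.67 TPM in SOD1-K123R replicates 1 to 4. The lowest mutant library thus lay more than 2 TPM above the highest wild-type one. The means were 0.400 ± 0.101 and 3.185 ± 0.50 TPM (mean ± SD, n = 4 in each group, as for all means below), a ratio of 7.96, which was the highest of the 6 genes. Tests used log2(TPM + 1), a scale that compresses the changes of such low genes, and there the fold change was 1.58 (95% interval 1.31 to 1.84; limma adjusted p = 1.002e-07).

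The cartilage matrix genes that SOX9 is known to activate were at very low levels, and of the 2 tested, 1 fell and 1 did not pass. As 51.1% of all tested genes were called lower, this count is no result about SOX9 targets. Col2a1, the main collagen of cartilage, was listed at 0 in all 4 SOD1-WT libraries and at 0.02 to 0.08 TPM in SOD1-K123R. Acan, the large proteoglycan that gives the disc core its water, was 1.23 to 2.16 TPM in SOD1-WT and 0.50 to 0.72 TPM in SOD1-K123R. It fell (log2 fold change -0.62, limma adjusted p = 5.574e-04). Its mean in SOD1-K123R was 0.645 TPM, so it entered the test through SOD1-WT, where it was high. Hapln1, which links aggrecan to hyaluronan, was 1.22 to 2.66 and 0.24 to 0.56 TPM and lay just under the filter of 1 TPM. Prg4, the lubricant proteoglycan lubricin, had a log2 fold change of 0.17 and did not pass (limma adjusted p = 0.309), although it passed as higher after median-of-ratios scaling (0.42) and after quantile normalization (0.45). Of 26 genes listed for the SOX trio and its targets only these 4 and Sox9 were in the table, and Sox5 and Sox6 were not analysed here.

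Nog was also under 1 TPM in every SOD1-WT library. Its TPM were 0.91, 0.63, 0.52 and 0.66 in SOD1-WT and 2.65, 3.27, 3.71 and 2.31 in SOD1-K123R, so that again every mutant library was above every wild-type one. The mean went from 0.680 ± 0.165 to 2.985 ± 0.626 TPM, a ratio of 4.39 (log2 fold change 1.24, 95% interval 0.94 to 1.54; limma adjusted p = 2.236e-06). In RefSeq's GRCr8 annotation Nog lies inside the span of a second protein-coding gene model, Nogl1. The labels do not say how reads shared by such models were counted, and the level of Nog is uncertain to that extent.

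The gene of the BMP ligand and that of the most abundant measured antagonist went the opposite way to Nog. Bmp2, a ligand that noggin binds, read 134 to 162 TPM in SOD1-WT and 9.94 to 15.2 TPM in SOD1-K123R (log2 fold change -3.56). Grem1, which encodes the BMP antagonist gremlin, fell from 2055 ± 300.4 to 347 ± 18 TPM (log2 fold change -2.55), so that its level exceeded that of Nog by far in both groups. Bmper, another secreted BMP-binding protein, fell from 3.76 ± 0.873 to 0.700 ± 0.206 TPM. The receptor gene Bmpr1b fell from 26.1 ± 3.30 to 7.75 ± 0.542 TPM, while Acvr2b, a receptor shared with activins, rose from 0.478 ± 0.108 to 2.37 ± 0.846 TPM. Bmper in SOD1-K123R and Acvr2b in SOD1-WT averaged under 1 TPM, so both entered the test through the group in which they were high. Acvr2b is also a gene in which 1 library stood apart in each group. These were SOD1-WT replicate 4 at 0.64 TPM and SOD1-K123R replicate 1 at 3.63 TPM.

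Among the genes that BMP signals are known to control, 3 rose. Smad6, an inhibitor induced by BMP signals, rose from 9.87 ± 1.90 to 26.1 ± 1.06 TPM (log2 fold change 1.34; limma adjusted p = 4.349e-07). Id4, a repressor of differentiation, and Msx2, a homeobox factor, rose by 0.53 and 0.51 on the log2 scale. Both calls ended when table totals were made equal (0.24 and 0.32), and the groups overlapped for Msx2 but not for Id4. Bambi, a decoy receptor, was called lower (log2 fold change -0.24, limma adjusted p = 0.0384). Its groups overlapped too, and its sign turned after median-of-ratios scaling (0.19). The ligand gene Gdf5 did not pass (0.32, limma adjusted p = 0.0948), but passed as higher after median-of-ratios scaling and after quantile normalization (0.54 in both). Of the 10 BMP pathway genes tested besides Nog, 4 rose, 5 fell and 1 did not pass. The median log2 fold change was 0.04 against -0.49 for all genes tested. Since 44.6% of all tested genes rose and 51.1% fell, this count is no result about the pathway. Below the filter, Bmp5 was 0.51 to 1.04 TPM in SOD1-WT and 0.09 to 0.31 TPM in SOD1-K123R. Smad9, also below it, was 0.81 to 1.03 and 0.22 to 0.34 TPM.

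Of the surface markers, Cd24 was the highest of the 6 in both groups by mean level. It read 8.55, 9.33, 10.8 and 11.7 TPM in SOD1-WT and 33.6, 38.2, 30.3 and 22.9 TPM in SOD1-K123R. The mutant libraries spread more, with replicate 4 the lowest, yet this library was still almost 2 times the highest wild-type one. The mean went from 10.1 ± 1.43 to 31.2 ± 6.44 TPM, a ratio of 3.09 (log2 fold change 1.52, 95% interval 1.2 to 1.85; limma adjusted p = 7.401e-07). Among 20 listed surface antigens of disc cells and ligands of CD24 only Cd55, a complement regulator, was also in the table. Cd55 fell from 448 ± 135 to 143 ± 27.6 TPM.

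Cdh2 was about as abundant as Cd24 in SOD1-WT cells and was lower in the mutant. It read 9.15, 9.89, 9.69 and 8.98 TPM in SOD1-WT, and 2.75, 2.99, 3.57 and 2.52 TPM in SOD1-K123R. The mean went from 9.43 ± 0.432 to 2.96 ± 0.451 TPM, 3.19-fold lower in SOD1-K123R (log2 fold change -1.40, 95% interval -1.66 to -1.15; limma adjusted p = 1.810e-07). After median-of-ratios scaling, which moved the median of all tested genes up by 0.32, the log2 fold change was -1.03.

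The 2 other tested genes of the cadherin list fell as well, as did 51.1% of all tested genes, so this count is no result about the list. Ctnnb1 encodes beta-catenin, which ties the tails of cadherins to the cytoskeleton and also carries Wnt signals. It read 203 to 209 TPM in SOD1-WT and 53.3 to 67.5 TPM in SOD1-K123R (log2 fold change -1.73; limma adjusted p = 2.860e-09). Cdh11, the cadherin of mesenchymal cells, fell from 18.1 ± 3.26 to 5.38 ± 0.923 TPM, although SOD1-WT replicate 1 (13.3 TPM) lay well under the other 3 (19.4 to 20.03 TPM). Cdh4 lay below the filter, and the other 22 listed cadherins, catenins and partners were not analysed here.

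Cd24 and Cdh2 were close in SOD1-WT and far apart in SOD1-K123R. Within a library the ratio of Cd24 to Cdh2 does not depend on scaling between libraries, and it was 0.934 to 1.31 in SOD1-WT and 8.47 to 12.8 in SOD1-K123R. A ratio between a marker that rose and one that fell could not overlap between the groups, given that neither gene did. Among the 6 pairs of markers that rose, the ratios of Sox9 to Car12, Cd24 to Car12, Cd24 to Nog and Car12 to Nog overlapped. The ratio of Sox9 to Nog did not overlap, at 0.519 to 0.712 in SOD1-WT and 0.844 to 1.18 in SOD1-K123R, nor did that of Sox9 to Cd24.

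**Figure D2:**
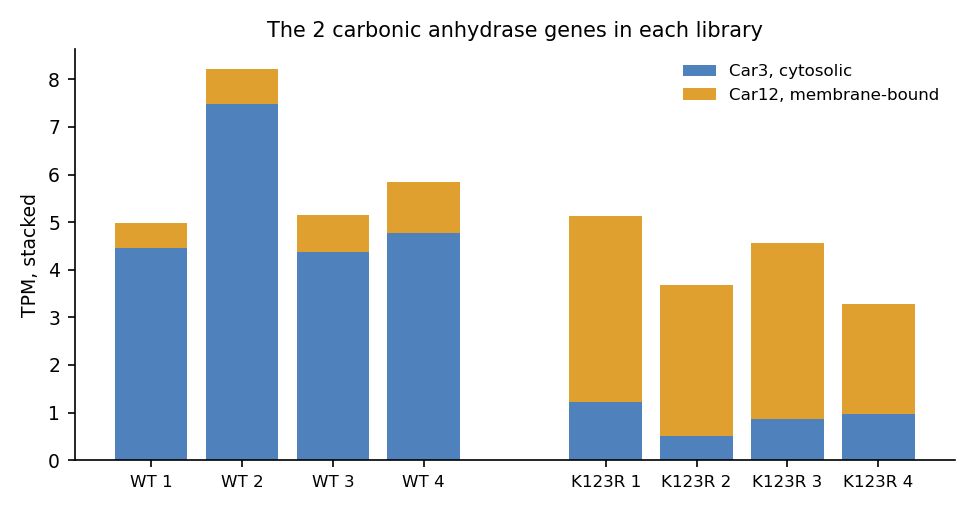
Stacked TPM of Car3 and Car12 in each library, SOD1-WT replicates 1 to 4 on the left and SOD1-K123R replicates 1 to 4 on the right. Car3 makes up most of each SOD1-WT bar and Car12 most of each SOD1-K123R bar, while the heights of the bars overlap between the groups.

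The carbonic anhydrase genes changed places. Car3, known mostly from muscle and fat and used as a marker of the rat disc core, read 4.46, 7.48, 4.38 and 4.78 TPM in SOD1-WT. In SOD1-K123R it read 1.23, 0.51, 0.87 and 0.96 TPM, and replicate 2 of SOD1-WT stood above the rest of its group. The mean went from 5.275 ± 1.48 to 0.893 ± 0.297 TPM, 5.91-fold lower in SOD1-K123R (log2 fold change -1.72, 95% interval -2.09 to -1.34; limma adjusted p = 8.342e-07). Without that replicate the log2 fold change was -1.56.

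Car12, the membrane enzyme that faces the outside of the cell and is a known target of hypoxia signalling, did the reverse. It read 0.52, 0.74, 0.78 and 1.07 TPM in SOD1-WT and 3.89, 3.17, 3.70 and 2.31 TPM in SOD1-K123R. The mean went from 0.778 ± 0.226 to 3.27 ± 0.707 TPM, a ratio of 4.20 (log2 fold change 1.26, 95% interval 0.93 to 1.58; limma adjusted p = 4.131e-06). A noncoding gene model, LOC120094191, overlaps Car12 in the GRCr8 annotation, so the uncertainty described for Nog applies to its level as well.

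Set against each other, Car3 made up 81.7% to 91.0% of the summed TPM of the pair in SOD1-WT and 13.9% to 29.4% in SOD1-K123R. The shares could not overlap between the groups, given that Car3 fell and Car12 rose with no overlap in either gene. Their sum was 4.98 to 8.22 TPM in SOD1-WT and 3.27 to 5.12 TPM in SOD1-K123R, so the groups overlapped in the sum. Car8, a relative that lacks the enzyme's activity, lay below the filter on average, at 0.14 to 0.75 TPM in SOD1-WT and 0.98 to 1.75 TPM in SOD1-K123R. Other carbonic anhydrases, Car9 among them, were not analysed here.

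Of the 3 other tested genes of acid and bicarbonate handling, 1 rose and 2 fell. With 44.6% of all tested genes called higher and 51.1% lower, this count is no result about the list. Slc4a2, which exchanges bicarbonate for chloride across the membrane, fell from 72.3 ± 7.88 to 23.9 ± 1.51 TPM (log2 fold change -1.56). Gpr4, a receptor that senses protons, rose from 0.350 ± 0.0739 to 2.03 ± 0.283 TPM, and it entered the test through SOD1-K123R, where it was high. Slc9a9, of the same list, lay below the filter, at 1.41 to 1.75 TPM in SOD1-WT and 0.19 to 0.52 TPM in SOD1-K123R. Slc4a4, a sodium bicarbonate cotransporter, overlapped between the groups, and its fall (-0.51, limma adjusted p = 0.0353) passed in 4 of 8 fits that left out 1 library. It was lost without SOD1-WT replicate 3 or 4 or SOD1-K123R replicate 3 or 4 (-0.34, -0.42, -0.46 and -0.44), and also after median-of-ratios scaling (-0.16) and quantile normalization (-0.18).

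**Figure D3:**
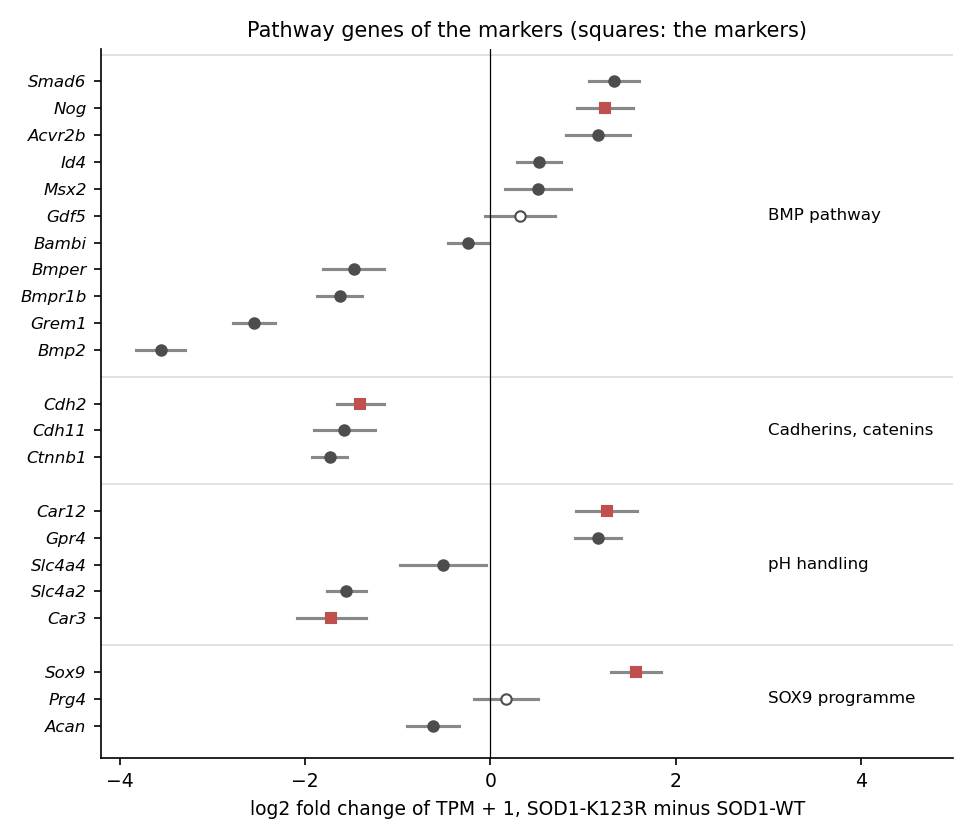
Log2 fold changes of TPM + 1 with 95% intervals for the tested genes reported from 4 lists, with red squares for the markers, filled circles for other genes that passed and open circles for those that did not. All 3 genes of the cadherin list lie below 0, where 51.1% of all tested genes were called lower. The lists around Nog, the carbonic anhydrases and Sox9 hold genes on both sides.

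Short stretches upstream of Cd24 and Car12 are shown because these genes rose together and RefSeq's promoter table holds them. It had entries for 3 of the 6 markers (Cd24, Car12 and Nog), and the Nog window is not printed because it lies inside the span of Nogl1. Each line gives the 250 bases before the start, 5′ to 3′, and capitals mark matches on either strand to ACGTG, the core of hypoxia response elements, to GGGCGG, the GC box, or to TATAAA, the TATA box.
Cd24, GRCr8 chr20:48656227-48656476, plus strand: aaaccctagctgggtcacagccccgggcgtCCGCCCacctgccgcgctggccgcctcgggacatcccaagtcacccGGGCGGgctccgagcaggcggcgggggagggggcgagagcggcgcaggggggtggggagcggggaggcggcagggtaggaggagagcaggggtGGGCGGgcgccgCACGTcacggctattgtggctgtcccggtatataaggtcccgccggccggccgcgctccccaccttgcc
Car12, GRCr8 chr8:76169565-76169814, plus strand: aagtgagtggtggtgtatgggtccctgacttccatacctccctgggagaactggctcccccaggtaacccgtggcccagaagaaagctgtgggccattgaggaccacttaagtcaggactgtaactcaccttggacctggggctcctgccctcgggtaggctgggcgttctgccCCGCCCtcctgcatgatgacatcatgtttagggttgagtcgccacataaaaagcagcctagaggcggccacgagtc
Cd24 had 1 ACGTG match, 69 bases before the start, and 3 GGGCGG matches, and Car12 had 1 GGGCGG match, 76 bases before the start. Car12 also had 2 ACGTG matches just after its start, in bases that are not printed and that the shares below do not cover. ACGTG was found in 16.6% and GGGCGG in 30.5% of 33469 RefSeq promoter windows of this length, and TATAAA, found in 12.9%, was absent from both of these. Only these exact letters were searched, and variants of the TATA box, such as the tatataag printed for Cd24, were not. Cd24 also had 1 match to ACAAT, the core bound by SOX proteins, which 30.02% of windows hold. The E-box CACGTG (5.59% of windows) and the CCAAT box (34.0%) were searched as well and had no match in either printed window. The windows differed in base composition, with 75.6% G and C for Cd24 and 58.4% for Car12. The annotation also has a Cd24 transcript that starts further upstream, and none of these matches shows that a factor binds.

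The order of the 6 genes by level differed between the groups. In SOD1-WT it ran Cd24, Cdh2, Car3, Car12, Nog and Sox9, where Cd24 overlapped with Cdh2 and Car12 with Nog, and the other neighbours did not overlap. In SOD1-K123R it ran Cd24, Car12, Sox9, Nog, Cdh2 and Car3. From Car12 to Cdh2, with means between 2.96 and 3.27 TPM, each gene overlapped with the next. Cd24 did not overlap with Car12, nor Cdh2 with Car3. Except for Cd24 the markers were scarce for this table: at most 40.1% of the genes tested (for Cdh2) had a lower mean.

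**Figure D4:**
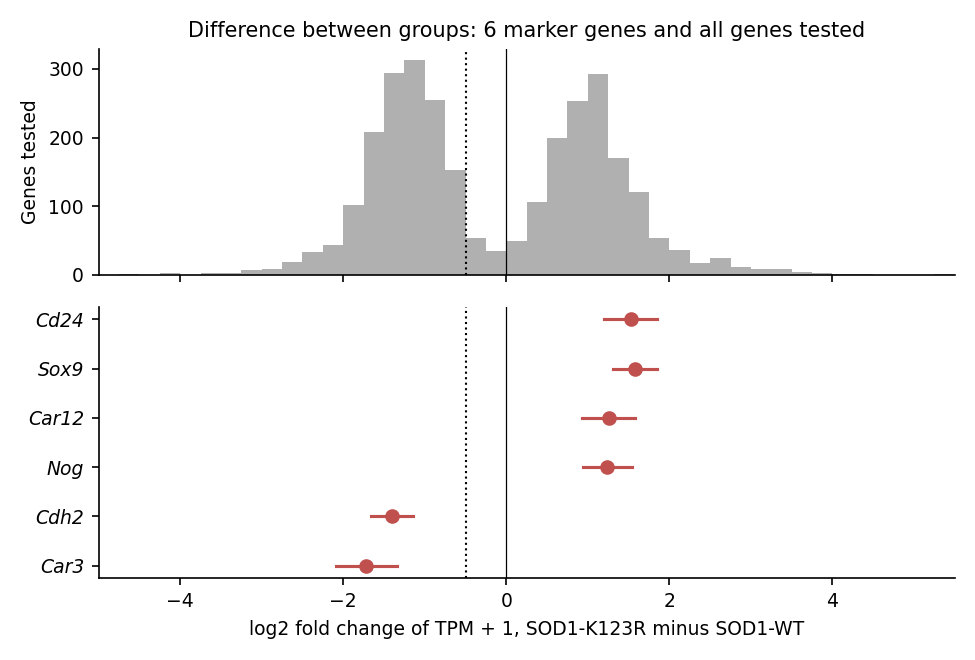
Histogram of log2 fold changes of all 2890 genes tested (top) and the 6 markers with 95% intervals (bottom), on a shared axis with the median of all genes dotted. The histogram has a peak on each side of 0, and the markers lie within those peaks or just outside them.

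In size the changes of the markers were ordinary to moderately large for this table. Between 58.1% (Nog) and 85.4% (Car3) of tested genes had a smaller absolute log2 fold change. Few genes of the table were near no change: 244 of 2890 tested genes (8.44%) had an absolute log2 fold change under 0.5. Sox9, Car12 and Nog averaged under 1 TPM in SOD1-WT and Car3 in SOD1-K123R, so these 4 entered the test through the group in which they were high. A single gene tested alone by exact permutation of the 8 libraries gave p = 0.0286 (two-sided, unadjusted) for each marker, the smallest value that 4 against 4 allows. This value follows from the lack of overlap alone, which 91.4% of tested genes share, so it adds nothing about the markers.

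The genes whose profile over the 8 libraries was most like each marker were found by Pearson's r of log2(TPM + 1). Among the nearest 3 were Krt17, Gab1 and Gpbar1 for Sox9 (0.996 to 0.998), Dnajb4 and Rnf2 for Cd24 (0.995 and 0.994), and Dnajb4, Dusp7 and Ston1 for Car12 (0.990 to 0.991). For Nog these were Ier5l, Rhov and Rita1 (0.991 to 0.992), for Cdh2 Meox2, Snapin and Hmgn2-ps4 (0.994 to 0.995) and for Car3 Tlcd1, Rbm45 and Mzt2b (0.983 to 0.989). Such values describe the step between the groups that most genes share: 343 (Car3) to 694 (Sox9) tested genes exceeded an r of 0.95. Of the 18 nearest genes, 3 for each marker, 13 remained with a pseudocount of 0.1 and 7 after median-of-ratios scaling.

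When each library was instead expressed as its deviation from its group mean, the nearest genes were others. They were Med27, Sgf29 and Ccdc9b for Sox9, Prr33, Eps8 and Ftsj1 for Cd24, P2ry2, Smagp and Sh3gl3 for Car3, and Dusp7, Pgap1 and Ldah for Car12. For Cdh2 they were Eef1a1l1, Serpinb6b and Cep15, and for Nog Mgst3, Ier5l and Apex1. Dusp7, a phosphatase of MAP kinases, was thus near Car12 by both measures (r = 0.990 and 0.960 over 8 libraries), and Ier5l was near Nog by both (0.992 and 0.904). The 2 measures use the same values within groups, so nearness by both is not independent support. By deviations, 2 tested genes for Sox9 and 1 for each other marker exceeded an r of 0.95. These genes were picked as the highest of all, and whether they stand out from chance was not tested. They were not rechecked under other settings.

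Among 38 listed markers of the disc core and notochord, 15 were in the table and 12 were tested. Of the 6 tested besides the genes above, Slc2a1, the glucose transporter GLUT1, and Ccn2, a matricellular protein, rose (log2 fold changes 2.28 and 1.64). Anxa3, an annexin, fell from 50.0 ± 3.71 to 19.5 ± 0.940 TPM, and Acan, Ncam1, an adhesion molecule (-0.99), and Cav1, the caveolar protein caveolin (-1.15), fell too. The median of these 6 was -0.80, against -0.49 for all genes tested, of which 44.6% rose and 51.1% fell. The keratins Krt8, Krt18 and Krt19 and brachyury (Tbxt), by which notochordal cells are usually defined, were not analysed here.

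Markers of neighbouring cell types were looked at as well. With 44.6% of all tested genes called higher and 51.1% lower, calls among them are no result about these cell types. Tendon and annulus genes in the table summed to 700.1 to 1160 TPM in SOD1-WT and 268 to 335 TPM in SOD1-K123R: Scx and Thbs2 fell (-1.38 and -1.43), Thbs4 fell by 0.63 but not after median-of-ratios scaling (-0.21), and Tppp3 did not pass (0.11), except as higher after median-of-ratios scaling (0.48). Nearly all of this sum was Thbs2, at 646 to 1100 TPM in SOD1-WT, where replicate 4 stood apart as the highest, and 245 to 304 TPM in SOD1-K123R. Genes of contractile cells split, with Acta2 at 1429 ± 453 and 434 ± 48.8 TPM and Myh11 lower and Mcam higher in SOD1-K123R. Of the hypertrophic and bone genes Runx2 rose and Ibsp fell (1.38 and -2.02), and Mmp13 rose by 0.58 but had -0.070 after quantile normalization. Cd68, 1 of 12 macrophage and leukocyte markers, was 5.44 to 7.94 TPM in SOD1-WT and 22.8 to 29.8 TPM in SOD1-K123R. Fabp4, 1 of 6 adipocyte markers, had 0.50 and was lost in 4 of 8 fits leaving out 1 library, those without SOD1-WT replicate 2 or 4 or SOD1-K123R replicate 1 or 3 (0.44, 0.35, 0.47 and 0.40), and with equal table totals (0.21). The endothelial genes Pecam1 and Tie1 were at most 0.46 TPM in any library and Acta1, the 1 glia and skeletal muscle gene in the table, at most 1.51 TPM; erythroid genes were not analysed here. The part of these cell types in the changes of the 6 markers was not tested.

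**Figure D5:**
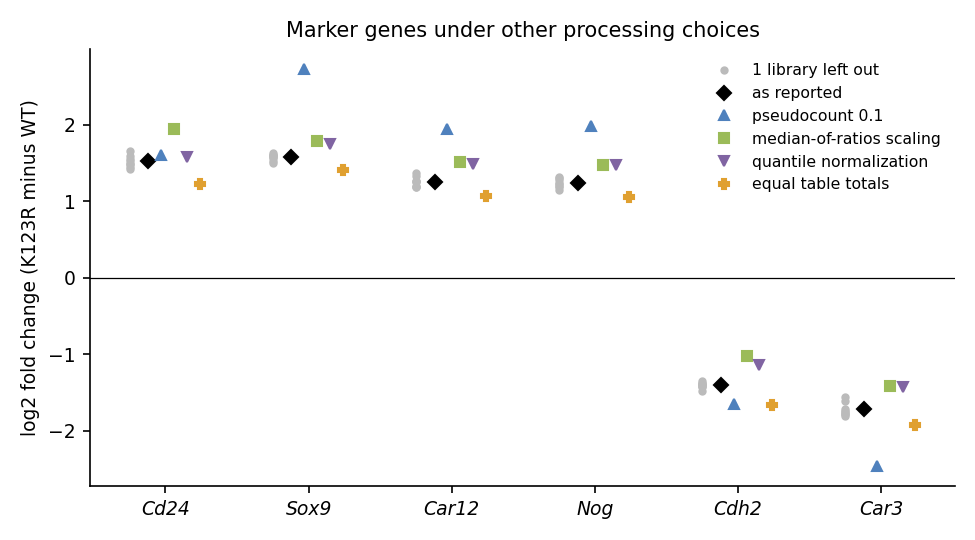
Log2 fold changes of the 6 markers as reported, with another pseudocount, under 3 other scalings, and with 1 library left out at a time (grey). Every value keeps its sign, a pseudocount of 0.1 moves Sox9 most, and median-of-ratios scaling draws Cdh2 toward 0.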

How the data were processed

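RNA-seq was analysed in 8 rat libraries. Per the labels, total RNA was extracted with TRIzol and reverse transcribed with SuperScript II, and paired-end reads came from an Illumina NovaSeq. The authors deposited gene-level TPM, which the table's name credits to RSEM; the submitters' processing notes name DESeq2 without a role. Aligner, build and annotation were not given in the sources used here. The rows analysed held 18.8% to 19.9% of the full TPM total in SOD1-WT and 23.5% to 24.3% in SOD1-K123R. What selected these rows was not given in the sources used here. TPM keep no depth, so no counting interval was set.

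The 2890 of 4226 genes averaging 1 TPM or more were fitted as log2(TPM + 1) with limma 3.58.1 in R 4.3.3 (eBayes with a mean-variance trend), two-sided, with Benjamini-Hochberg adjustment over all of them. The fit was run on simulated data in which few genes changed, whereas most genes of this table were called. That run therefore says little about the adjusted p-values given here. Groups follow sample titles. Correlations between libraries were 0.981 to 0.994 within and 0.788 to 0.818 between groups. The markers and the 14 gene lists (249 genes, 56 in the table, matched by exact symbol) were chosen with earlier results of these data known. Named were the markers, all tested members of lists with at most 6, otherwise the 4 with the smallest adjusted p, and the 3 most similar profiles by each measure. Further genes of the BMP list, Acan, Ncam1, Cav1 and genes below the filter were named after their values were seen. Results for 2 genes that this rule would name are not reported here, and 1 of them is left out of the list counts. RefSeq GRCr8 tables gave promoters and overlapping models.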

Additional observations from a re-analysis of the deposited data

Results flagged for a closer look

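In 10 of 102 groups of 4 values examined (the markers and the list and notochord genes named with them, in each group), 1 library stood apart by Dixon's criterion at the 95% level, where chance gives about 1 in 20. Among the 6 markers this held for Car3 alone: SOD1-WT replicate 2 read 7.48 TPM and the others 4.38 to 4.78, and the log2 fold change without it was -1.56 in place of -1.72. Cdh11 read 13.3 TPM in SOD1-WT replicate 1 against 19.4 to 20.03 in the others (log2 fold change without it -1.71). Thbs2 read 1100 TPM (1099.63) in SOD1-WT replicate 4 against 646 to 702 (without it -1.25). Gpr4 read 1.61 TPM in SOD1-K123R replicate 3 against 2.12 to 2.22 (without it 1.23). Acvr2b read 0.64 TPM in SOD1-WT replicate 4 against 0.42 to 0.43 (without it 1.21), and 3.63 TPM in SOD1-K123R replicate 1 against 1.81 to 2.05 (without it 1.00). Below the filter, Hapln1 read 2.66 TPM in SOD1-WT replicate 3 against 1.22 to 1.32, Col2a1 0.02 TPM in SOD1-K123R replicate 4 against 0.08 in each of the others, Cdh4 0.60 TPM in SOD1-WT replicate 3 against 0.88 to 0.90, and Tie1 0.18 TPM in SOD1-WT replicate 3 against 0 to 0.02.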

How the results depend on the processing

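The direction and call of the 6 markers held in each alternative that could be run (16 for Sox9, Car3, Car12 and Nog, 17 for Cd24 and Cdh2); a filter at a mean of 5 TPM removed the first 4. With a pseudocount of 0.1 the log2 fold changes were 2.73 for Sox9, 1.98 for Nog, 1.95 for Car12 and -2.46 for Car3. Median-of-ratios scaling moved the median of all tested genes by 0.32 and gave 1.79 for Sox9, 1.94 for Cd24, 1.51 for Car12, 1.48 for Nog, -1.41 for Car3 and -1.03 for Cdh2. The highest adjusted p of a marker in any alternative was 1.564e-04 (Car12, limma). Genes called lower numbered 1476, and 897 with a filter at 5 TPM, where fewer genes were tested; genes called higher went from 1289 to 948.

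The replicate number as a block (correlations of same-numbered deviations -0.35, 0.02, -0.20 and 0.05) gave 1282 genes higher and 1461 lower and ended the calls of Slc4a4 (-0.51, adjusted p = 0.0703) and Bambi (-0.24, adjusted p = 0.0708). Signs turned after median-of-ratios scaling for Bambi (0.19), after quantile normalization for Mmp13 (-0.070), and with equal table totals for Prg4 (-0.0031) and Tppp3 (-0.16). Leaving out 1 library gave -0.063 to 0.26 for Tppp3, below 0 without SOD1-WT replicate 3 (-0.0062) or SOD1-K123R replicate 4. Bambi lost its call in 5 of these 8 fits (-0.28 to -0.17 over all 8, those without SOD1-WT replicate 1, 2 or 4 or SOD1-K123R replicate 1 or 4), and Gdf5 passed without SOD1-K123R replicate 4 (0.42). The cause of these changes was not tested. TPM without depth limit what can be said of values under 1 TPM, such as Sox9, Nog and Car12 in SOD1-WT.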

Other observations

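The annotation deposited with the table ties Sox9 and Nog to the notochord, which the choice of markers did not use. It names the notochord for 6 genes in all, of which 4 were tested, and this group was singled out after its values were seen. Besides Sox9 and Nog these were Epha2, an ephrin receptor, and Wnt11, a secreted Wnt ligand, and all 4 were called higher in SOD1-K123R, as were 44.6% of all tested genes. Of the 4, Sox9, Nog and Wnt11 averaged under 1 TPM in SOD1-WT and entered the test only through the group in which they were high, so the count supports nothing about the notochord group. Epha2 read 52.0 to 57.6 TPM in SOD1-WT and 236 to 252 TPM in SOD1-K123R (log2 fold change 2.11; limma adjusted p = 2.088e-10). Wnt11 read 0, 0.16, 0 and 0.05 TPM in SOD1-WT and 6.59, 6.22, 6.94 and 5.59 TPM in SOD1-K123R. Col2a1 and Gli1, the other genes so annotated, lay below the filter, Gli1 at no more than 0.20 TPM in any library.

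Annotation for binding of beta-catenin, also looked at after the values were seen, covered 12 tested genes, Cdh2 and Sox9 among them. Of these 10 rose and 2 fell, where 44.6% of all tested genes rose and 51.1% fell, with a median log2 fold change of 1.11 against -0.49 for all genes tested. Cdh2 was 1 of the 2 that fell, and beta-catenin's own gene, Ctnnb1, fell by 1.73 on the log2 scale. Other annotation groups holding markers were looked at too. They were chondrocyte differentiation (1 rose, 5 fell), cartilage development (2 rose, 3 fell) and cell adhesion (13 rose, 19 fell). Negative regulation of BMP signaling (5 rose, 2 fell) and carbonate dehydratase activity (1 of each) were the others. With 44.6% of all tested genes called higher and 51.1% lower, these counts are no result about any of the groups. The beta-catenin count was thus picked from several and is no result about that group.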
